A study of Mus musculus with 8 samples.

Results

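Of the 55523 entries of a gene count table from sorted mouse pituitary gonadotropes, 9 carry the symbol of a gene of copper transport or of copper-dependent peptide amidation. They stand for 8 genes, namely *Slc31a1*, *Slc31a2*, *Atox1*, *Ccs*, *Atp7a*, *Atp7b*, *Cp* and *Pam*, and were picked by symbol alone from the table, *Pam* being listed at 2 loci. All 9 entries passed the filter on low counts that left 20152 entries to be tested. The gonadotropes were EGFP-positive cells sorted from the pituitary of Ad4BP-BAC-EGFP mice, which carry EGFP on a bacterial artificial chromosome of *Nr5a1*, the gene of the nuclear receptor NR5A1 (Ad4BP). There were 4 male and 4 female samples of this genotype, with no treatment or age given in the labels, and they are called female 1 to 4 and male 1 to 4 by their replicate numbers. The transgene reports the activity of *Nr5a1* sequences and not gonadotropin content, and the sorted fraction can hold other pituitary cells. The labels do not say whether the samples of a sex came from separate animals, so every p-value measures the spread between these samples, which may be technical. The 8 genes were chosen after results of this data set were known, so all differences between the sexes are given as a description.

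Copper is a cofactor of enzymes that pass electrons, and the free ion is toxic, so cells hand it from protein to protein. The high-affinity importer CTR1 (*Slc31a1*) brings copper in, CTR2 (*Slc31a2*) acts on endosomal and lysosomal copper, and the chaperones ATOX1 and CCS deliver it to the secretory pathway and to superoxide dismutase. The P-type ATPases ATP7A and ATP7B pump copper into the trans-Golgi network, where secreted copper enzymes are loaded, and out of the cell. Among the enzymes supplied there are ceruloplasmin (*Cp*), a ferroxidase, and peptidylglycine alpha-amidating monooxygenase (*Pam*), which makes the C-terminal amide of peptide hormones and is abundant in pituitary secretory granules.

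Of the 8 genes, the differences between the sexes were largest in *Slc31a2* and *Atp7b*, both higher in females, whereas their relatives *Slc31a1* and *Atp7a* had groups that overlapped. The regions around their annotated starts are therefore printed here, from RefSeq on build GRCm38.p6, each from 250 bases before to 50 bases after the start in the direction of transcription. Capitals mark AAGGTCA, a motif bound by NR5A1, and the cores TGCACNC and TGCGCNC of the metal response element, searched on both strands. A match on the opposite strand stands in the printed strand as its reverse complement. The windows are chr4:62286179-62286478 (plus strand) for *Slc31a2*, chr8:22060025-22060324 (minus strand) for *Atp7b*, chr4:62360451-62360750 (plus strand) for *Slc31a1* and chrX:106026974-106027273 (plus strand) for *Atp7a*.
Slc31a2: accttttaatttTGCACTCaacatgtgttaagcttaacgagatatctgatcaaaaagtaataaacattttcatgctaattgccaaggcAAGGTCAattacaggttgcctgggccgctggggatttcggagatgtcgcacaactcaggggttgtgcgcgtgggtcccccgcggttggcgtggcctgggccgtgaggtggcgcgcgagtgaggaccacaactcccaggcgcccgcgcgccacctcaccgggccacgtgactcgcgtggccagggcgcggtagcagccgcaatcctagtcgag
Atp7b: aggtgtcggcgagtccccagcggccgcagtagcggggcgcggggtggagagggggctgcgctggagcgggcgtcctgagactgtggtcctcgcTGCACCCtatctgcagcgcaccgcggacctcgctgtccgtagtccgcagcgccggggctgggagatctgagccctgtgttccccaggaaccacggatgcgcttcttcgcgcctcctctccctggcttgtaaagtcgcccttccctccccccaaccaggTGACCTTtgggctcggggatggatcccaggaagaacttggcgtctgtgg
Slc31a1: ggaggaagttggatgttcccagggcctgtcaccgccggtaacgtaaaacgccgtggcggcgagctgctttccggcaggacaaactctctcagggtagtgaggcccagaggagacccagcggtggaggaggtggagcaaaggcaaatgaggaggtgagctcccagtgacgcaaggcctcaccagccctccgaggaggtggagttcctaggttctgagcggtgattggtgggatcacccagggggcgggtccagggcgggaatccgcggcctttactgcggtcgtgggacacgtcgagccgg
Atp7a: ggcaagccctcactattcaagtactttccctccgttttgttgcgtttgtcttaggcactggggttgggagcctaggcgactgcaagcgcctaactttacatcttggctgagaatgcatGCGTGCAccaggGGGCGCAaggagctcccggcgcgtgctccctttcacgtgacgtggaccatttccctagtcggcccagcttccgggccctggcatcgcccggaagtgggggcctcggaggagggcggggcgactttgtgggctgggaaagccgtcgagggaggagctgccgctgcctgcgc

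AAGGTCA was present in the windows of *Slc31a2*, on the printed strand at -162 from the RefSeq start, and of *Atp7b*, on the opposite strand at +2. It was absent from the other 5 windows that matched a member (no window was used for *Ccs*), so 2 of 7 had it, beside 4.66% of all 27018 RefSeq promoter windows of the same length. A metal response core was found in 3 of 7, at -238 in *Slc31a2*, at -157 in *Atp7b* and at -132 and -120 in *Atp7a*, beside 25.6% of all windows. No match of either motif overlapped another in these windows. The motifs were chosen after the sequences and the counts had been seen, and a match of letters is a description of the window only. The annotated genes of GENCODE M21 begin upstream of the RefSeq starts used here, at chr4:62262562 for *Slc31a2* and at chr8:22060305 (minus strand) for *Atp7b*. The marked motifs of both windows thus lie inside the annotated genes.

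Total counts ran from 18774578 to 31302588 over the 8 libraries. Expression is given as CPM, the count of a gene relative to the total of its library after scaling by TMM factors, which balance the composition of the libraries, and 3 counts, taken as the floor, were between 0.0921 and 0.146 CPM on this scale. This floor covers counting error only. The gonadotrope markers *Lhb*, *Fshb*, *Cga* and *Gnrhr* were high in every library, whereas *Nr5a1*, from 584 to 1266 CPM in 7 libraries, was only 16.3 CPM in male 1. The study left this library out as unlike the other males, and it is shown apart here. For single members, female 1 (*Pam*) and female 2 (*Slc31a1*) also stood apart. The markers of somatotropes, lactotropes and corticotropes or melanotropes were present in every library too, *Pomc* for example between 10140 and 28580 CPM.

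In the fit across all genes, 2 of the 8 members, *Atp7b* and *Slc31a2*, were past the threshold of an adjusted p of 0.05, both higher in females. Over all entries tested, 2.34% were past it, 1.35% higher in females and 0.983% higher in males. The libraries of the sexes did not overlap for 5 of the 8 members, beside 22.3% of all entries. These 5 were *Slc31a2*, *Atox1*, *Ccs* and *Atp7b*, higher in females (10.8% of all entries), and *Pam*, higher in males (11.5%). The median log2 fold change, male over female, was -0.79 over the 8 members and -0.03 over all entries. This median of the members rests in part on *Slc31a1* of female 2, without which library it was -0.25, and with all 8 samples it was -0.21. These counts use males 2 to 4 and females 1 to 4, as do all tests below unless stated. In bulk RNA of sorted cells, fewer cells of a type and less RNA per cell cannot be told apart.

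**Figure D1:**
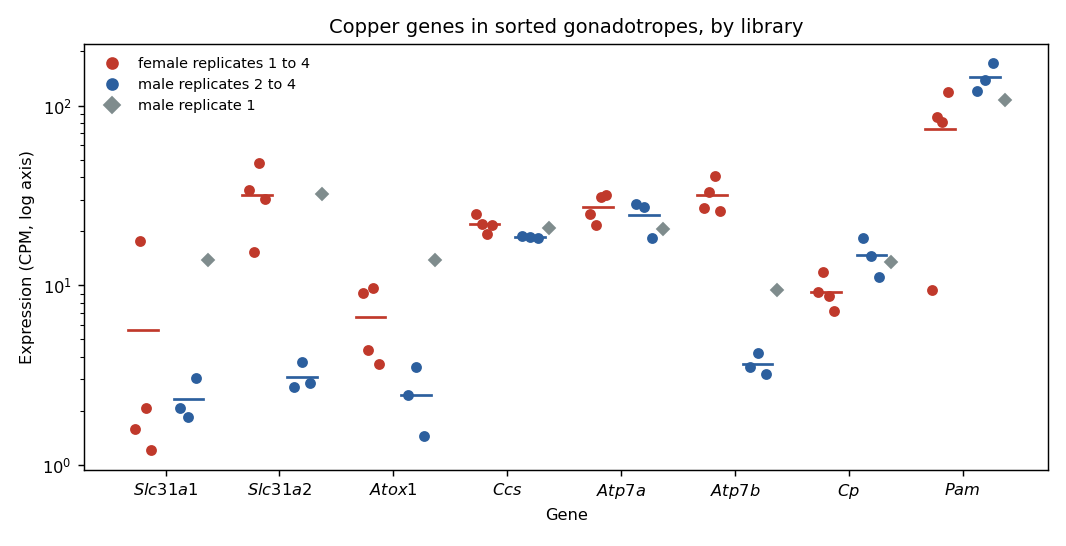
Expression of the 8 genes in each library, in CPM on a log axis; points are libraries and short lines are the means of 4 females and of 3 males. *Atp7b* and *Slc31a2* of males 2 to 4 lie at or below 4.19 CPM and all females at or above 15.4 CPM, while male 1 (grey) lies at 9.39 CPM for *Atp7b* and at 32.0 CPM for *Slc31a2*.

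*Slc31a1*, the importer at the cell surface (chr4:62360727-62391769, plus strand), was low in most libraries. It was 1.58, 17.6, 2.09 and 1.21 CPM in females 1 to 4, 2.09, 1.85 and 3.04 CPM in males 2 to 4, and 13.9 CPM in male 1. Female 2 and male 1 were high, with 361 and 318 counts against 28 to 68 counts in the other 6, and the groups overlapped. The log2 fold change, male over female, was -1.31 ± 1.02 (SE), with a 95% confidence interval from -3.72 to 1.09 and an adjusted p of 0.552 in edgeR's quasi-likelihood test. Without female 2 it was 0.51. *Cdc26*, a subunit gene of the anaphase-promoting complex, overlaps *Slc31a1* on the opposite strand and was 109.6 ± 19.5 CPM in females (SD, n = 4) and 132 ± 14.9 CPM in males (SD, n = 3). With counting that ignores strand, as featureCounts does by default, the reads of such a pair cannot be told apart where exons overlap.

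*Slc31a2* lies upstream of *Slc31a1* on the same strand (chr4:62262562-62298411), with *Fkbp15* between them. Its expression was 34.0, 15.4, 47.8 and 30.1 CPM in females 1 to 4 and 2.72, 3.74 and 2.86 CPM in males 2 to 4. Male 1 had 32.0 CPM. The 3 males were thus below every female, and male 1 was inside the female range. Behind these values were 315 to 1558 counts per female library and 63 to 99 counts in the 3 males. The female mean was 31.8 ± 13.3 CPM (SD, n = 4) and the male mean 3.11 ± 0.552 CPM (SD, n = 3). The fitted level was 10.4-fold higher in females, with a 95% confidence interval from 5.38 to 20.2, or -3.38 ± 0.41 (SE) on the log2 scale, male over female. The adjusted p was 0.0185 in edgeR's quasi-likelihood test, rank 65 of all entries. With male 1 among the males, the log2 fold change was -1.62 with an adjusted p of 0.60 by the same edgeR test. Leaving out male 2, 3 or 4 gave an adjusted p of 0.0765, 0.0669 or 0.0614 in edgeR, with a log2 fold change between -3.53 and -3.29.

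*Atox1*, the chaperone that hands copper to the ATPases (chr11:55446641-55461239, minus strand), was 9.07, 4.39, 9.61 and 3.67 CPM in females 1 to 4. It was 2.44, 3.51 and 1.45 CPM in males 2 to 4 and 13.8 CPM in male 1. The females were above the 3 males by a small margin, 3.67 CPM in the lowest female and 3.51 CPM in the highest of these males. Male 1 was above all other libraries. The log2 fold change was -1.46 ± 0.47 (SE), with a 95% confidence interval from -2.56 to -0.37, and the adjusted p was 0.148 in edgeR's quasi-likelihood test.

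*Ccs*, the chaperone for superoxide dismutase (chr19:4825366-4839332, minus strand), was the steadiest of the members. It was 25.0, 22.0, 19.4 and 21.5 CPM in the females, 18.8, 18.7 and 18.3 CPM in males 2 to 4 and 21.0 CPM in male 1. Over the 7 libraries compared, its coefficient of variation was 11.9%, the lowest of the 8 members, whose highest was 141% for *Slc31a1*. The sexes did not overlap, yet the log2 fold change was -0.27 ± 0.15 (SE), and the adjusted p was 0.375 in edgeR's quasi-likelihood test. The 95% confidence interval ran from -0.62 to 0.08.

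*Atp7a*, the copper ATPase made in most tissues (chrX:106027276-106124926, plus strand), was at similar values in both sexes. It was 25.0, 21.6, 30.8 and 31.8 CPM in the females, 28.3, 27.3 and 18.3 CPM in males 2 to 4 and 20.6 CPM in male 1. The lowest and the highest of the 7 libraries compared were a male and a female, and the groups overlapped. The log2 fold change was -0.18 ± 0.22 (SE), with a 95% confidence interval from -0.70 to 0.33, and the adjusted p was 0.721 in edgeR's quasi-likelihood test.

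*Atp7b*, the ATPase best known from liver (chr8:21992785-22060305, minus strand), was 27.0, 33.0, 40.7 and 25.9 CPM in the females and 3.51, 4.19 and 3.22 CPM in males 2 to 4. Male 1 had 9.39 CPM. Every female was above every male, male 1 included, which lay between the groups. The counts were 598 to 1325 in the females, 71 to 111 in the 3 males and 215 in male 1. The female mean was 31.6 ± 6.79 CPM (SD, n = 4) and the male mean 3.64 ± 0.497 CPM (SD, n = 3). The fitted level was 8.86-fold higher in females, with a 95% confidence interval from 6.06 to 13.0, or -3.15 ± 0.23 (SE) on the log2 scale. The adjusted p was 0.00609 in edgeR's quasi-likelihood test, rank 7 of all entries. With male 1 included, the log2 fold change was -2.64 and the adjusted p 0.0422 in edgeR, in a fit that called 1 of the 8 members and 0.342% of all entries. The call was kept when each of the 7 libraries was left out in turn, at adjusted p between 0.0119 and 0.0244 in edgeR, but not with all 4 males and no female 1, where the adjusted p was 0.0853 in edgeR.

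**Figure D2:**
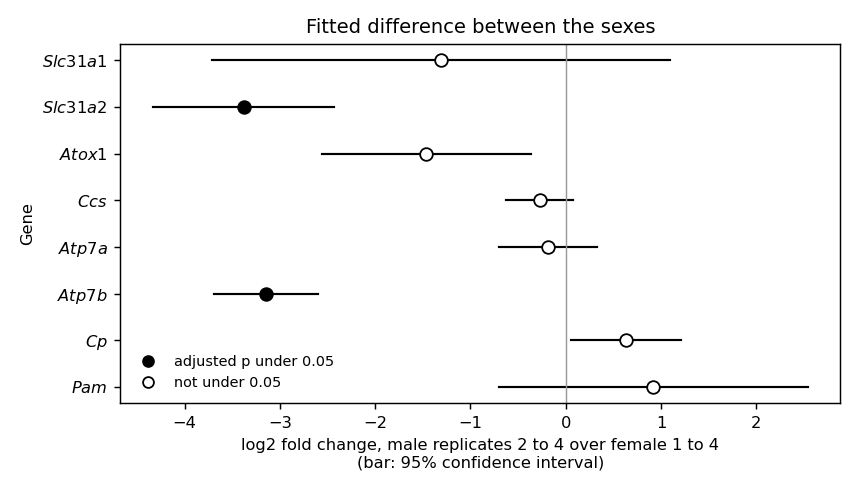
Fitted log2 fold change of each gene, males 2 to 4 over females 1 to 4, with its 95% confidence interval as a bar; filled points had an adjusted p under 0.05 in edgeR's quasi-likelihood test. *Slc31a2* at -3.38 and *Atp7b* at -3.15 stand apart on the left, *Slc31a1* and *Pam* have the widest bars, and *Ccs* and *Atp7a* lie near 0.

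Marker sums of some other cell types also differed between the sexes, in both directions, while those of others overlapped. The summed level of the 3 pituitary stem and folliculostellate cell markers (*Sox2*, *Sox9*, *S100b*) was between 244 and 383 CPM in females, between 138 and 173 CPM in males 2 to 4 and 305 CPM in male 1. *S100b* was at most 1.47 CPM and overlapped between the sexes. *Sox9* was past the threshold, with a log2 fold change of -1.02 and an adjusted p of 0.0417 in edgeR, and 1 of these 3 markers was called. That call was lost without any 1 of the 7 libraries, at adjusted p between 0.058 and 0.135 in edgeR, as the log2 fold change stayed between -1.09 and -0.88. The sum of the 4 stromal markers was between 99.6 and 145 CPM in females, between 85.6 and 97.1 CPM in the 3 males and 96.5 CPM in male 1. None of these markers was called. Taken singly, *Col1a2*, *Pdgfrb* and *Dcn* overlapped between the sexes, and *Col1a1* did not. The sum of the 5 gonadotrope markers was between 21488 and 34863 CPM in females, between 67930 and 75717 CPM in the 3 males and 28423 CPM in male 1, with *Fshb* called as higher in males, a call kept in edgeR only without female 4 when single libraries were left out (adjusted p between 0.0325 and 0.135). Within this list *Nr5a1* went the other way, at 1068 ± 189 CPM in females (SD, n = 4) and 716 ± 116 CPM in the 3 males (SD, n = 3), with no overlap, a log2 fold change of -0.61 and an adjusted p of 0.13 in edgeR, and *Lhb*, *Cga* and *Gnrhr* overlapped between the sexes. The somatotrope and thyrotrope sums were also higher in the 3 males than in any female, while those of the lactotrope, corticotrope and melanotrope, endothelial and blood lists overlapped between the sexes. No marker was at 0 in all libraries. The part of these cells in the differences of *Atp7b* and *Slc31a2* was not tested.

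*Cp*, the multicopper ferroxidase (chr3:19957054-20009145, plus strand), went the other way. It was 9.15, 11.9, 8.68 and 7.18 CPM in the females, 18.2, 14.6 and 11.1 CPM in males 2 to 4 and 13.5 CPM in male 1. The groups overlapped through female 2 and male 4. The log2 fold change was 0.63 ± 0.24 (SE), with a 95% confidence interval from 0.06 to 1.21 and an adjusted p of 0.214 in edgeR's quasi-likelihood test. *Hps3*, a gene of lysosome-related organelles that overlaps *Cp* on the opposite strand, was 11.8 ± 1.35 CPM in females (SD, n = 4) and 11.2 ± 2.21 CPM in males (SD, n = 3).

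*Pam*, the amidating enzyme (chr1:97795114-98095646, minus strand), was 9.37, 86.2, 81.1 and 119.5 CPM in females 1 to 4, 120.0, 139.0 and 171.6 CPM in males 2 to 4 and 106.8 CPM in male 1. Female 1, with 219 counts against 1767 to 3779 in the other libraries, was far below the rest. The highest female and the lowest of the 3 males nearly met. The log2 fold change was 0.92 ± 0.69 (SE), with a 95% confidence interval from -0.70 to 2.54 and an adjusted p of 0.530 in edgeR's quasi-likelihood test. Without female 1 it was 0.58, with an adjusted p of 0.260 in edgeR. The second entry named *Pam*, at a locus shared with the noncoding *B230216N24Rik* inside the gene on the same strand, held only 4 to 30 counts per library and had a log2 fold change of -0.98 ± 0.88 (SE).

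The pair of ATPases was also compared within each library, as CPM per kb of exon, with all annotated exons of a gene merged. The ratio of *Atp7b* to *Atp7a* was 1.45, 2.05, 1.77 and 1.09 in females 1 to 4 and 0.166, 0.206 and 0.237 in males 2 to 4. Male 1, at 0.613, lay between them. *Atp7b* thus made up 60.6 ± 6.52% (SD, n = 4) of the summed level of both ATPases in females, 16.8 ± 2.46% (SD, n = 3) in the 3 males and 38.0% in male 1. The summed level itself was 7.99 ± 1.23 CPM per kb in females and 3.38 ± 0.685 CPM per kb in the 3 males. A ratio above or below 1 depends on the length used, since the longest annotated transcript of *Atp7a* is 4900 bases against 8734 for its merged exons. With the longest transcript the female ratio was 0.893 ± 0.232 and the male ratio 0.114 ± 0.0199, and the fold between the sexes is the same by construction.

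The ratio of *Slc31a2* to *Slc31a1*, per kb of exon, was 45.3, 1.84, 48.2 and 52.4 in females 1 to 4. It was 2.74, 4.25 and 1.98 in males 2 to 4 and 4.86 in male 1. Female 2 was below all males, because its *Slc31a1* was the highest of the females and its *Slc31a2* the lowest. The other 3 females were above every male.

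**Figure D3:**
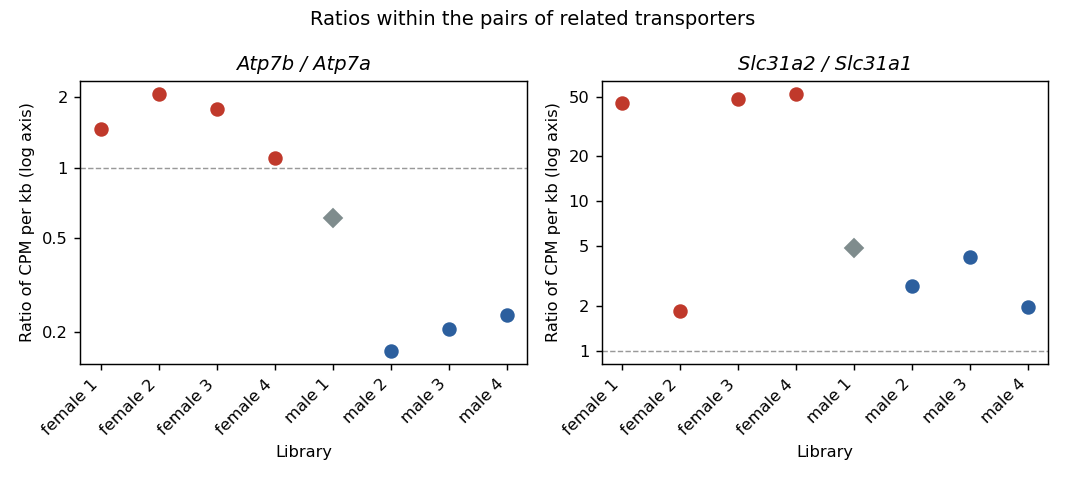
Ratio of length-scaled levels (CPM per kb of merged exons, log axis) within each library, *Atp7b* over *Atp7a* on the left and *Slc31a2* over *Slc31a1* on the right; red points are females, blue points males 2 to 4, the grey diamond male 1, and the dashed line equality. On the left all females are at or above 1.09 and all males at or below 0.613; on the right female 2, at 1.84, is below all males.

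Levels of different genes were put in order only on the length-scaled measure. In females the mean was 15.7 ± 6.56 CPM per kb for *Slc31a2*, 12.4 ± 5.70 for *Atox1* and 12.3 ± 1.30 for *Ccs*, and the ranges of these 3 overlapped. *Pam* followed at 6.23 ± 3.90 and *Atp7b* at 4.86 ± 1.04 CPM per kb, which overlapped with each other, then *Atp7a* at 3.12 ± 0.557, below *Atp7b* in all 4 libraries. The range of *Pam*, from 0.788 (female 1) to 10.05 CPM per kb, also met those of *Slc31a2* and *Atox1* above it. It met those of *Atp7a*, *Slc31a1* and *Cp* below it as well. *Slc31a1* at 1.31 ± 1.87 and *Cp* at 0.965 ± 0.206 CPM per kb were last, and not separated. The mean of *Slc31a1* rests on female 2, at 4.11 CPM per kb, through which its range also met that of *Atp7a*, and *Slc31a1* was above *Cp* in only 1 of 4 females. In the 3 males the order was *Pam* at 12.1 ± 2.19, *Ccs* at 10.4 ± 0.146, *Atox1* at 4.56 ± 1.90 and *Atp7a* at 2.82 ± 0.632 CPM per kb. *Pam* and *Ccs* overlapped, as did *Atox1* and *Atp7a*. Below them were *Cp* at 1.53 ± 0.372 and *Slc31a2* at 1.53 ± 0.271 CPM per kb, which overlapped, and *Atp7b* at 0.560 ± 0.0764 and *Slc31a1* at 0.544 ± 0.147 CPM per kb, which overlapped as well.

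Scaled to the longest transcript instead, *Ccs* (20.6 ± 2.17 CPM per kb) and *Pam* (18.1 ± 11.3) had the highest means in females, followed by *Slc31a2* (17.5 ± 7.33), which was not separated from *Pam*, and the mean of *Atp7a* (5.57 ± 0.992) came above that of *Atp7b* (4.86 ± 1.04). *Atp7a* and *Atp7b* were not separated, as the ratio of *Atp7b* to *Atp7a* on this length was 1.15 in female 2 and 0.993 in female 3. In the 3 males *Pam* had the highest mean with either length, though with merged exons it was above *Ccs* in only 2 of 3 libraries, and it was at 35.0 ± 6.36 CPM per kb with the longest transcript. Over the 7 libraries, the merged-exon level of *Ccs* was at percentile 87.1 of the 31383 entries with a count and a length, *Slc31a2* at 85.1, *Atox1* at 84.3 and *Pam* at 83.9. *Atp7b* was at percentile 67.9, *Atp7a* at 67.8, *Cp* at 54.6 and *Slc31a1* at 51.9.

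**Figure D4:**
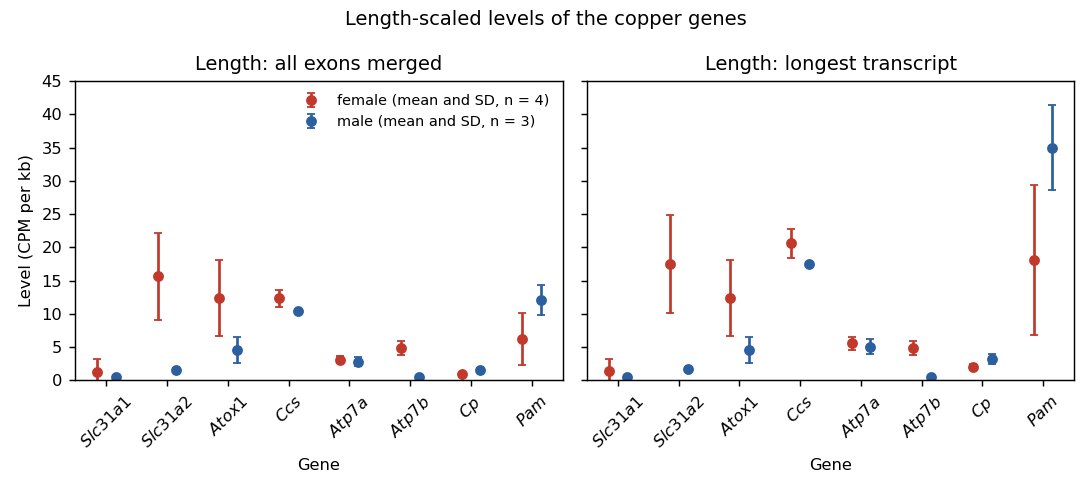
Length-scaled levels of the 8 genes (CPM per kb, mean and SD of 4 females in red and 3 males in blue), with merged exons on the left and the longest annotated transcript on the right. *Slc31a2* is 15.7 in females and 1.53 in males on the left, and *Pam* rises most with the shorter length, to 35.0 in males.

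The tested protein-coding genes nearest to *Slc31a2* and *Atp7b*, a pair on each side chosen after the members' values were seen, did not pass the threshold. Beside *Slc31a2*, the log2 fold change was 0.47 ± 0.19 (SE) for *Zfp37*, 31515 bases upstream, and 0.02 ± 0.16 (SE) for *Fkbp15*, 1931 bases downstream. *Alg11*, an enzyme of N-glycan synthesis 416 bases from *Atp7b*, was at 0.35 ± 0.33 (SE), and *Nek5*, 13311 bases away, at -0.16 ± 0.21 (SE). *Slc31a1*, 62316 bases downstream of *Slc31a2*, was at -1.31 ± 1.02 (SE), as given above. The remaining tested genes of these pairs lie far off, *Snx30* at 2357825 bases from *Slc31a2*, and *Agpat5* and *Mcph1* at 3101424 and 3189596 bases on the lower-coordinate side of *Atp7b*. Their log2 fold changes were 0.01, -0.45 and 0.56.

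**Figure D5:**
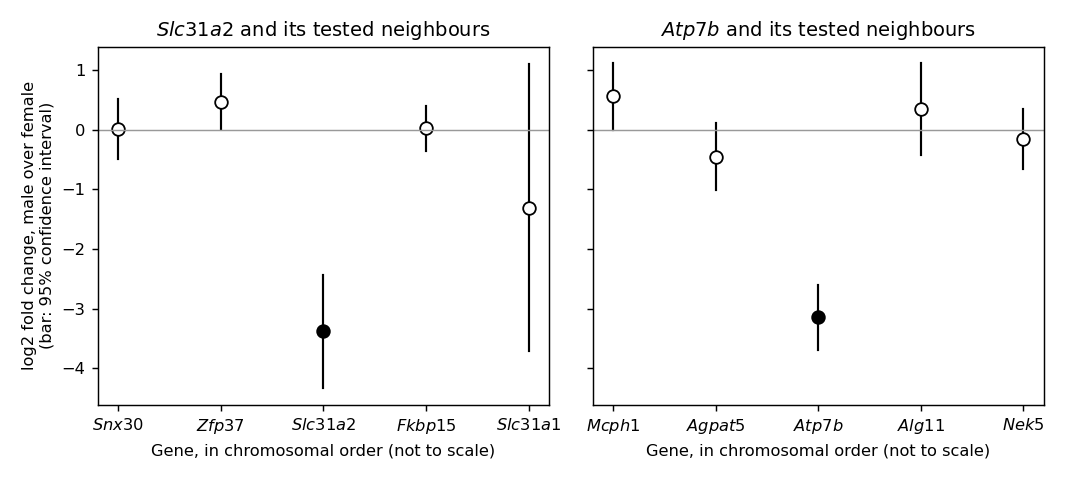
Fitted log2 fold change, males 2 to 4 over females 1 to 4, with 95% confidence intervals, of *Slc31a2* (left), *Atp7b* (right) and the nearest tested protein-coding genes on each side, in chromosomal order and not to scale (*Snx30*, *Agpat5* and *Mcph1* are 2357825 bases or more away). Only the filled points, *Slc31a2* at -3.38 and *Atp7b* at -3.15, had an adjusted p under 0.05 in edgeR; the neighbours lie between -1.31 and 0.56.

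For each member, the 3 genes with the most similar pattern were sought among 9796 genes, by Pearson's r of log2(CPM + 1) over the 7 libraries, in which all genes of a library have the same depth and scaling factor. For *Atp7b* they were *Fut8* (r = 0.996), *Pygo2* (r = 0.993) and *Elavl3* (r = 0.992), of which *Elavl3*, an RNA-binding protein gene of neurons, had a log2 fold change of -2.89. For *Slc31a2* they were *Galc* (r = 0.989), the lysosomal galactosylceramidase, *Kdm6b* (r = 0.988) and *Mex3d* (r = 0.986). *Atp7b* and *Slc31a2* had r = 0.958 with each other, whereas *Atp7b* had r = 0.322 with *Atp7a*. These values take in the difference between the sexes, so a high r between genes that differ strongly says nothing on variation within a sex. *Fut8*, *Pygo2*, *Elavl3* and *Galc* were themselves past the threshold between the sexes. The highest r among so many genes is also high by selection.

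*Atox1* was nearest to *Fut11* (r = 0.984), *Plekha7* (r = 0.977) and *Armh3* (r = 0.974), and *Ccs* to *Pald1* (r = 0.984), *Six3os1* (r = 0.972) and *Abl1* (r = 0.970). *Atp7a* was nearest to *Echdc2* (r = 0.995), *Smarce1* (r = 0.970) and *Rbm22* (r = 0.964). *Cp* followed *Zfp512* (r = 0.987), *Ctsd* (r = 0.986) and *Il15ra* (r = 0.977). *Pam* was nearest to *Crem* (r = 0.993), *Rpl4* (r = 0.989) and *Psme3* (r = 0.987), and *Slc31a1* to *Clint1* (r = 0.990), *Letmd1* (r = 0.969) and *Tpi1* (r = 0.962). In these 6 cases no gene named was past the threshold between the sexes.

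Around the 8 members, 86 further genes of copper handling and peptide amidation were examined in 6 lists. Of the 65 that could be tested, 2 were past the threshold, beside 2.34% of all entries, and the median log2 fold change was 0.04. Both belong to peptide processing, in which 2 of 12 tested genes were called. *Scg5*, the 7B2 chaperone of prohormone convertase PC2, was 1517, 1425, 1456 and 1429 CPM in the females, 2672, 2678 and 2264 CPM in males 2 to 4 and 1309 CPM in male 1. Its log2 fold change was 0.77 ± 0.11 (SE), with an adjusted p of 0.0275 in edgeR's quasi-likelihood test. *Qpct*, which closes N-terminal glutamine to pyroglutamate, another end modification of peptide hormones such as GnRH, was 109, 108, 137 and 157 CPM in the females. It was 387, 461 and 282 CPM in males 2 to 4 and 116 CPM in male 1, a log2 fold change of 1.53 ± 0.21 (SE) with an adjusted p of 0.0276 in edgeR. For both genes the 3 males were above every female, and male 1 was within the female range or below it. Both calls depend on single libraries. Without male 2 or male 3, the adjusted p in edgeR was 0.0878 or 0.0976 for *Scg5* and 0.0878 or 0.0856 for *Qpct*, and without female 2 or female 3 it was between 0.0592 and 0.0646 for both. *Scg5* also missed the threshold without female 4, at 0.056 in edgeR, and *Qpct* without female 1, at 0.0538 in edgeR. With all 8 samples, the edgeR adjusted p was 0.41 for *Scg5* and 0.272 for *Qpct*.

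The convertase *Pcsk1*, named after its values were seen, was 210.1 ± 111 CPM in females (SD, n = 4) and 879.5 ± 191 CPM in males (SD, n = 3), with no overlap and an adjusted p of 0.0633 in edgeR. *Cpe*, the carboxypeptidase that exposes the glycine on which PAM acts, was 791 ± 176 CPM in females and 539 ± 25.1 CPM in males, at a log2 fold change of -0.58 ± 0.19 (SE) and an adjusted p of 0.15 in edgeR.

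None of the 12 tested precursors of amidated peptides was called. *Pomc* was 16703 ± 4710 CPM in females and 18575 ± 9320 CPM in the 3 males. *Gal*, the galanin gene, was 90.3 ± 31.8 and 24.04 ± 12.5 CPM, with no overlap and an adjusted p of 0.089 in edgeR. *Tac1* and *Calca* had the largest log2 fold changes of the list, 2.36 and 2.28, at means of at most 8.17 CPM. The other 17 precursors of the list were too low to be tested, *Avp*, *Crh* and *Gnrh1* among them.

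None of the 11 tested genes of mitochondrial copper delivery was called, and their log2 fold changes lay between -0.17 and 0.52. *Coa6* was 71.1 ± 9.25 CPM in females and 74.2 ± 9.55 CPM in males, and *Slc25a3*, the phosphate carrier that also takes copper into mitochondria, 296 ± 152 and 347 ± 42.2 CPM. *Coa5*, at 0.52 ± 0.18 (SE), and *Cmc2*, at 0.37 ± 0.68 (SE), had the largest log2 fold changes of that list, and *Cmc2* was low in female 2 alone, at 4.2 CPM against 37.0 to 49.4 CPM in the other females.

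Of storage, sensing and reduction, 0 of 10 tested genes were called. The metallothionein *Mt1* was 787 ± 184 CPM in females, 617 ± 49.0 CPM in the 3 males and 1533 CPM in male 1, above all other libraries, and *Mt2* was 138 ± 48.1 and 109.98 ± 15.2 CPM. *Mt3* had a log2 fold change of -2.66 ± 0.80 (SE) and an adjusted p of 0.131 in edgeR, and the metalloreductase gene *Steap2* one of 1.33 ± 0.78 (SE).

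Of transporter trafficking, 0 of 8 genes were called, with *Ap1s1* at 99.3 ± 9.93 CPM in females and 114 ± 5.92 CPM in males and *Vps35*, of the retromer, at 84.7 ± 10.01 and 108 ± 17.2 CPM. The largest log2 fold changes were 1.68 ± 1.18 (SE) for *Ap1m1* and -1.49 ± 1.59 (SE) for *Ccdc22*. *Ap1m1* was 54.7 CPM in female 2, as in the males, and between 1.07 and 5.79 CPM in the other 3 females. *Ccdc22* was 10.8 CPM in female 3 and at most 3.17 CPM in every other library.

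Of the other copper-dependent enzymes, 0 of 12 tested genes were called. *Sod1*, the client of CCS, was 86.1 ± 5.47 CPM in females and 90.7 ± 5.87 CPM in males, but 32.6 CPM in male 1. The extracellular *Sod3* was 68.7 ± 11.6 and 48.4 ± 0.921 CPM, with no overlap and an adjusted p of 0.134 in edgeR. *Aoc3* and *Aoc1*, at log2 fold changes of -2.55 and 2.31, were below 2 CPM on average in both sexes. The value of *Aoc1* rests on male 2, at 3.43 CPM against 0 CPM in male 3 and 0.454 CPM in male 4.

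Male 1 did not side with either sex across the members. It was within the female range, and outside that of males 2 to 4, for *Slc31a1* (only through female 2, at 17.6 CPM), *Slc31a2*, *Ccs* and *Pam*. For *Atp7a* and *Cp* it was within the male range and outside the female one, for *Atp7b* between the groups, and for *Atox1* above both. Among the 471 entries called between the sexes, it was between the groups in 186, within the female range in 115, within the male range in 52 and outside both in 118.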

How the data were processed

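Total RNA of EGFP-positive pituitary cells (RNeasy micro kit) was made into libraries with a low-input kit and sequenced as paired ends. The authors removed adapters with cutadapt (version 4.2), mapped reads to mm10 with STAR (version 2.5.4a) and deposited raw counts per gene from featureCounts (version 1.6.1), all at default settings. The annotation is not given in the sources used here, and many entries carry names of the form given by transcript assembly. Counts were tested with edgeR (version 4.0.16, R 4.3.3), by quasi-likelihood fits with TMM scaling, filterByExpr and Benjamini-Hochberg adjustment over all 20152 entries, after the code had been tested on simulated data. The SE is the absolute log2 fold change over the square root of F. Samples were grouped by their titles, and male replicate 1, left out by the study, was kept out of the fit.

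CPM came from TMM factors over 8 libraries, and exon lengths and positions from GENCODE M21 (GRCm38). Named genes were the members; in each wider list those called, the 2 highest per kb and, where none was called, the 2 with the largest log2 fold change; and the 3 genes closest to each member with a mean of at least 10 CPM. Members and lists were chosen with earlier results of these data known. Alternatives were DESeq2 (version 1.42.0), other scalings and filters, robust dispersion, all 8 samples, a replicate block, leaving out each replicate and, for levels, other lengths and scaling. The sets "all 4 males and no female replicate 1" and both *Pam* entries summed were added after the data were seen. Tables were made with Python 3.11.15 and pandas 2.3.3.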

Additional observations from a re-analysis of the deposited data

Results flagged for a closer look

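Within a group of 4 libraries, 5 values of the members lay further from the other 3 than Dixon's criterion at 95% allows (the gap to the nearest library over the range of the group), of 18 such groups tested (2 sexes for each of the 9 entries), where chance gives about 0.9. Of the 5, 4 were in male replicate 1. It had 9.39 CPM of *Atp7b* against 3.22 to 4.19 CPM in the other males. Its *Slc31a2* was 32.0 CPM against 2.72 to 3.74 CPM. *Slc31a1* in this library was 13.9 CPM against 1.85 to 3.04 CPM, and *Atox1* 13.8 CPM against 1.45 to 3.51 CPM. The fifth was *Slc31a1* in female replicate 2, at 17.6 CPM against 1.21 to 2.09 CPM in the other females. *Pam* in female replicate 1, at 9.37 CPM against 81.1 to 119.5 CPM, fell short of the criterion, with a gap of 0.652 of the range. *Nr5a1* was 16.3 CPM in male replicate 1; its relation to the copper genes was not tested.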

How the results depend on the processing

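The number of entries called was 471, and 2253 with DESeq2, 808 with library size alone, 177 with no filter beyond 1 count, 67 with all 8 samples, 40 with all 4 males and no female replicate 1 (35 of them shared with the 471), and 88 to 171 when a replicate was left out. With library size alone, 16.5% of calls were higher in males, against 42.0%, and the median of all entries was -0.24 on the log2 scale. Of the members, 2 were called, and 1 (*Atp7b*) with all 8 samples, 0 with all 4 males and no female replicate 1, and 1 to 2 when a replicate was left out. Of the wider lists, 2 were called, and 11 with DESeq2, 1 (*Qpct*) with library size alone, 0 with all 8 samples, 0 with all 4 males and no female replicate 1, and 0 to 2 when a replicate was left out.

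With the replicate block, edgeR called 0 entries (2954 at an unadjusted p under 0.05), 0 members and 0 genes of the wider lists. The labels do not say whether the replicate numbers pair the samples. Same-numbered deviations of replicates 2 to 4 had correlations from -0.0193 to -0.000805, which cannot exclude a shared batch. Under the block *Atp7b* was at -3.21 and *Slc31a2* at -3.23 on the log2 scale, with adjusted p of 0.162 and 0.196 in edgeR. With all 4 males and no female replicate 1, *Atp7b* was at -2.71 (adjusted p 0.0853 in edgeR) and *Slc31a2* at -1.59 (adjusted p 0.765). *Slc31a1* was the only member to change sign, to 0.51 without female replicate 2 (from -1.62 to 0.51 as each replicate was left out), and DESeq2 gave it no adjusted p. The other 5 members kept their sign and stayed past or short of the threshold under every alternative. Among them, *Atox1* moved from -1.46 to -0.33 with all 8 samples and to -0.15 with all 4 males and no female replicate 1. DESeq2 also called *Pcsk1*, *Mt3* and *Gal*, among 11 genes of the wider lists, where it called 9.93% of the 22679 entries it tested. The cause of these shifts was not tested. Of 24 length-scaled levels recomputed, 4 moved by more than 1 SD, those of *Atp7a*, *Ccs*, *Cp* and *Pam* with the longest transcript.

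Precision is limited by counts of 28 to 68 in 6 libraries for *Slc31a1* and of 4 to 30 for the second *Pam* entry, and by 3 against 4 samples.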
